A study of Homo sapiens with 12 samples.

Results

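The levels of 39 interferon-stimulated genes, taken as the rows of the deposited count table that carry their symbols, were followed in A375 cells before, during and after inhibition of the MAPK pathway. All 39 symbols were present among the 44659 genes of the table, and each was read in all 12 libraries. A375 is an established human melanoma line with an activating BRAF mutation, so every group came from a single line. The control group (CC) was kept in DMSO over 72 h. The treated group (TC) was kept over the same 72 h in 2 inhibitors together (MAPKi), vemurafenib against BRAF and cobimetinib against MEK, each at 500 nM, and was taken at day 0. The persister group (PC) was taken 2 days after the same MAPKi had been withdrawn, and the recovered group (RC) 9 days after. Each group had 3 libraries made from cytoplasmic RNA after depletion of ribosomal RNA. The sample labels place CC and TC at day 0, PC at day 2 and RC at day 9, and do not give dates of harvest. For PC and RC, the time of harvest and the group cannot be told apart. No source used here says that the 3 libraries of a group came from independent cultures, so the p-values measure the spread between these libraries, which may be technical.

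Interferon-stimulated genes are switched on when type I interferons bind the receptor IFNAR1/IFNAR2 and the kinases JAK1 and TYK2 activate the factor ISGF3, of which STAT2 and IRF9 are subunits. ISGF3 binds the interferon-stimulated response element (ISRE), and the gamma-activated site (GAS) is the element of the response to interferon gamma. IRF1 and IRF7 are factors of the same response that bind related elements. The products sense viral RNA, block viral entry, translation or budding, or modify proteins with the ubiquitin-like protein ISG15, and many melanoma lines keep a basal level of them without added interferon.

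Promoter windows from RefSeq on GRCh38.p14, each of 300 bases from 250 before to 50 after an annotated start, were found for 31 of the 39 genes. No window was matched for IFIT2, IFITM2, IRF7, MX2, OAS2, OASL, TRIM22 and USP18. The ISRE core was searched on both strands as GAAANNGAAA, where N is any base. Pairs of GAAA with another spacing were not searched. It was present in a window of 22 of the 31 genes (71.0%), against 3.57% of the 35116 windows of all genes and 4.38% of the 27305 genes. The GAS motif, searched as TTCNNNGAA, which reads the same on both strands, was present for 10 of the 31 genes (32.3%), against 7.66% of all windows and 9.38% of all genes. A GAS match shared bases with an ISRE core match in BST2, EPSTI1, IFI27, IFITM1 and MX1, and overlapping copies of the ISRE core were present in BST2, HERC5, IFIH1 and ISG15. These are matches of letters in a window and not measured binding.

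The windows printed here are of genes that changed in either direction and hold the ISRE core, so that promoters of genes that fell and of genes that rose can be read side by side. Of the genes called in both TC and PC, the windows of IRF1, STAT2, SAMD9L, IFI35 and OAS1 lacked the core as searched and are not printed. The OAS1 window holds gaaacgaaa and the IFI35 window gaaatgaaa. These are pairs of GAAA with a shorter gap, which the search did not cover. The printed windows are written 5′ to 3′ in the direction of the gene, in lower case with ISRE core matches in capitals. BST2, OAS3 and DTX3L fell under MAPKi, and the DTX3L window also holds the start of PARP9, which runs the other way from it. ISG15 and SAMD9 rose under MAPKi. IFIT1, IFITM1 and IFITM3 differed between RC and CC.
BST2 (chr19:17405581-17405880, minus strand): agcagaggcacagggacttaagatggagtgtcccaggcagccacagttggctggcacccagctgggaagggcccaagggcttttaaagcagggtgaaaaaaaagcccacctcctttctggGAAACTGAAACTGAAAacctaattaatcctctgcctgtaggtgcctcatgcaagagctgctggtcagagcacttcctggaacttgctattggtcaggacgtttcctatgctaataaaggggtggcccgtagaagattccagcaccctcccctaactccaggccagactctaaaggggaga
OAS3 (chr12:112938224-112938523, plus strand): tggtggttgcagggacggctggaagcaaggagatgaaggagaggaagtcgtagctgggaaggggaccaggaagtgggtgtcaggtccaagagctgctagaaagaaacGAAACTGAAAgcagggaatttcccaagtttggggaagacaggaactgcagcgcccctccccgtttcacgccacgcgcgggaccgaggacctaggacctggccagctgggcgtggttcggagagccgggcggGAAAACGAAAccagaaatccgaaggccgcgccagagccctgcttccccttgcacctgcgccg
DTX3L (chr3:122564088-122564387, plus strand): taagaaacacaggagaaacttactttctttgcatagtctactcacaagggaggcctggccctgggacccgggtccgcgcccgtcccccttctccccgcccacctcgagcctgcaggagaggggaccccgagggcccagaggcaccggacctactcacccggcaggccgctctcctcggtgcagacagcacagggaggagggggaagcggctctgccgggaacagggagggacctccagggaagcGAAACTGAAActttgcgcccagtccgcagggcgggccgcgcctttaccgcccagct
ISG15 (chr1:1013247-1013546, plus strand): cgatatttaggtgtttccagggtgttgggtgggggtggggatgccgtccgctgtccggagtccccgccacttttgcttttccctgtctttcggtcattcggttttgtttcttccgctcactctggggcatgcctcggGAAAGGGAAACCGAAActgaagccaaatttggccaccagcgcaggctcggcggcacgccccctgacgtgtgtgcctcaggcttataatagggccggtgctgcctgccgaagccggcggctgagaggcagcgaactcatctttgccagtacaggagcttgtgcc
SAMD9 (chr7:93117930-93118229, minus strand): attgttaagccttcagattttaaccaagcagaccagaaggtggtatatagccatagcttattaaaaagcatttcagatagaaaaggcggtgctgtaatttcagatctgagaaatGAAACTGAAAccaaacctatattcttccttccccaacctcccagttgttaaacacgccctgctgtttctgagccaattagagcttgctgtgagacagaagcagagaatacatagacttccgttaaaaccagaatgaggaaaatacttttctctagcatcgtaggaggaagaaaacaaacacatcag
IFIT1 (chr10:89392373-89392672, plus strand): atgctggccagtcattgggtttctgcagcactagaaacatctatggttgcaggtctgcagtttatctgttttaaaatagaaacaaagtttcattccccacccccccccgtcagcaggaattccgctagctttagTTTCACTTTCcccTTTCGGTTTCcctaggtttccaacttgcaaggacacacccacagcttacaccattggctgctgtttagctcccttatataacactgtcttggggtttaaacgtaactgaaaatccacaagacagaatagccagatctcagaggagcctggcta
IFITM1 (chr11:313790-314089, plus strand): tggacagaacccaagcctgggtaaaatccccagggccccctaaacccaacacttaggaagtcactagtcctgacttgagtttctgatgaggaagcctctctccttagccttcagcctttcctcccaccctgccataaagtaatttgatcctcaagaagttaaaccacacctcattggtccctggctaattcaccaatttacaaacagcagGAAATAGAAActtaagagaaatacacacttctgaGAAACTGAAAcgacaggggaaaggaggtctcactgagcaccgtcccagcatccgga
IFITM3 (chr11:320811-321110, minus strand): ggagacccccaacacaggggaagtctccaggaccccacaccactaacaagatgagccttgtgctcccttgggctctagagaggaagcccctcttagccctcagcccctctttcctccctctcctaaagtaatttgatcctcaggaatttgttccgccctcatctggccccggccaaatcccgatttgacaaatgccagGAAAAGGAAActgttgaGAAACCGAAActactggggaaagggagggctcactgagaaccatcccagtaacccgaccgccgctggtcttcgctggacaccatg

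The ISRE core stood 130 and 124 bases before the start of BST2, as 2 copies that share bases, and 113 and 107 bases before that of ISG15 in the same arrangement. OAS3 held copies 143 and 12 bases before its start, SAMD9 a copy 136 bases before, and IFIT1 copies 116 and 103 bases before, which lie on the reverse strand. Genes that fell and genes that rose both held the motif. Of the 11 genes lower in both TC and PC than in CC, 9 had a window and 7 of these held the ISRE core. PARP9 and DTX3L, both among the 7, were counted through the same site in their overlapping windows, as they were in the count over all members. Of the 12 genes higher in both, 10 had a window and 7 held it. Pairs of GAAA with another spacing, such as those in the OAS1 and IFI35 windows, are outside these counts.

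**Figure D1:**
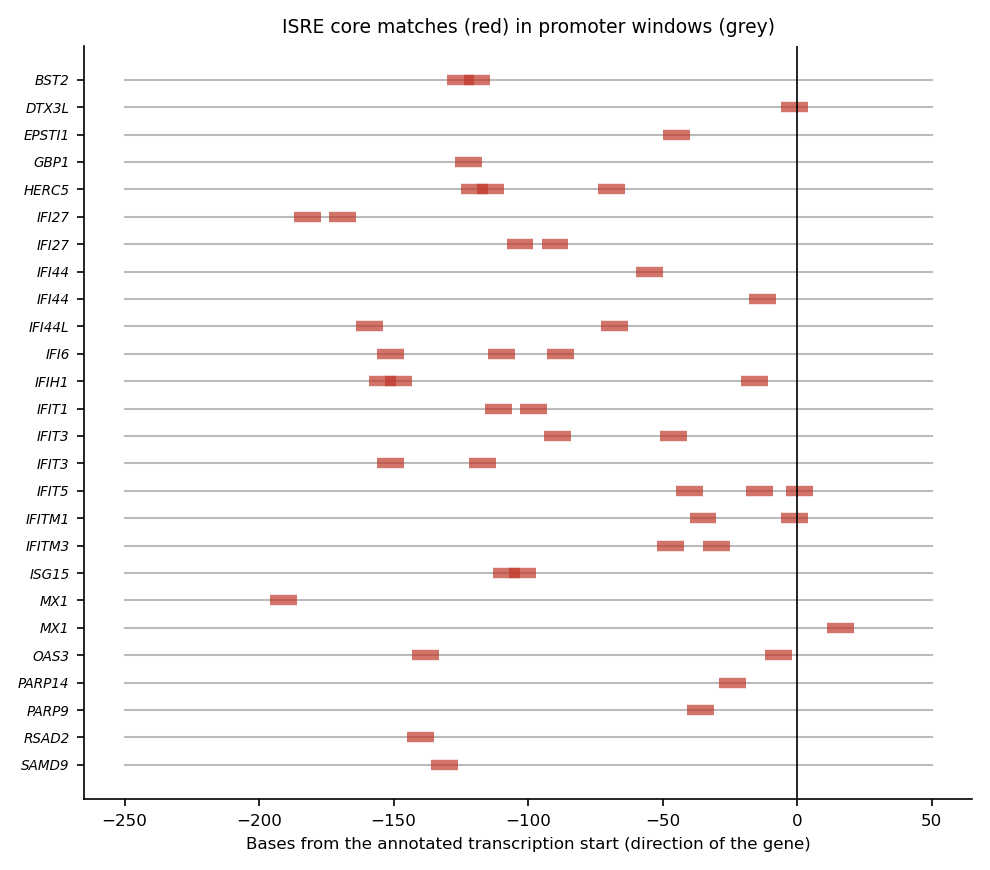
Positions of ISRE core matches (red, 10 bases each) in the 26 promoter windows that hold one (grey), by distance in bases from the annotated start in the direction of the gene. Genes with matches in 2 windows are drawn in 2 rows, and matches lie before the start in most windows, with 1 MX1 match beginning 11 bases after it.

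Total counts ran from 37773389 to 55567097 per library. Levels are given as CPM, counts divided by the normalized library size on the usual scale, and 3 counts equal between 0.0534 and 0.0785 CPM depending on the library. These limits cover counting error only. As a check of drug action, the ERK feedback genes DUSP6 and SPRY4 were lower in TC than in CC by -5.32 ± 0.49 and -8.06 ± 0.39 (log2 fold change ± SE; -4.46 and -7.52 without CC replicate 3), and the proliferation gene MKI67 by -4.01 ± 0.10. DUSP6 and SPRY4 were still lower in PC than in CC, at -5.23 to -4.03 and -9.36 to -8.55 over the alternative analyses. Neither was called between PC and TC, and both were higher in RC than in PC. PC thus holds cells off the drug in which these ERK feedback genes had not returned to the CC level. In RC, MKI67 was above CC by 0.98 ± 0.08. CC replicate 3 stood apart from the other CC libraries in DUSP6 (297 CPM against 77.6 and 94.4) and had the lowest CC level of ISG15 and IFIT1, and values without it are given where they move a result by over 1.5 times or end a call. All 8 melanocytic lineage markers were tested, with summed levels of 1830 to 2010 CPM in CC, 7220 to 10400 in TC, 3650 to 5260 in PC and 1630 to 1700 in RC. Summed levels of 6 leukocyte markers ran from 0.471 to 2.12 CPM, of 3 endothelial markers from 1.67 to 5.23 CPM and of 3 epithelial markers from 0 to 2.66 CPM, with 2, 2 and 1 of their genes at 3 counts or fewer in every library. The epithelial sum was 1.98 to 2.66 CPM in PC against at most 0.384 in CC, through KRT14 (2.29 ± 0.351 CPM in PC). The leukocyte sum was 1.52 to 2.12 CPM in CC against 0.471 to 1.04 in TC and PC, and the endothelial sum 3.36 to 5.23 against 1.67 to 2.33. The part of these markers in the results was not tested. In bulk RNA, fewer cells with a transcript and less of it per cell cannot be told apart.

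The question of the comparison of TC with CC was which transcripts change after 72 h of MAPKi. The interferon-stimulated genes did not move as a block: BST2, USP18, OAS1, OAS3, MX1 and PARP14 fell while SAMD9, SAMD9L, ISG15 and IRF1 rose. Of the 39 genes, 32 passed the filter of a mean scaled count of at least 10, and 7 did not (HERC5, TRIM22, RSAD2, IFI27, IFI44L, XAF1 and EPSTI1). At an adjusted p under 0.05, 13 of the 32 were higher in TC, where 33.2% of all 15916 tested genes were higher, and 12 were lower, where 34.7% of all tested genes were lower. Beyond 1.5-fold, 4 were higher (16.1% of all tested genes) and 8 lower (19.3%). The median log2 fold change of the 32 genes was 0.11, against -0.02 over all tested genes, and it lay between -0.09 without CC replicate 3 and 0.23 without CC replicate 2.

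The comparison of PC with CC asked which of these changes were present 2 days after the drug was removed. In PC, 12 genes were higher, with 33.2% of all tested genes, and 12 lower, with 35.9%. Beyond 1.5-fold, 4 were higher, against 17.2% of all tested genes, and 11 were lower, against 19.9%. The median was -0.01, against -0.04 over all tested genes, and it lay between -0.22 without CC replicate 3 and 0.27 without CC replicate 2. There were 12 genes higher and 11 lower in both TC and PC, and 0 were called in opposite directions. Of all tested genes, 28.4% were higher in both, 30.2% lower in both and 0.496% called in opposite directions. TC and PC were set against the same CC libraries, so agreement between them is partly built in. The genes higher in both were IRF1, STAT2, ISG15, IFIT2, IFIT3, IFIT5, SAMD9, SAMD9L, GBP1, IFITM3, MX2 and IFI6. Those lower in both were BST2, USP18, OAS1, OAS3, MX1, PARP9, PARP14, DTX3L, IFI35, IFIH1 and IFITM2.

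**Figure D2:**
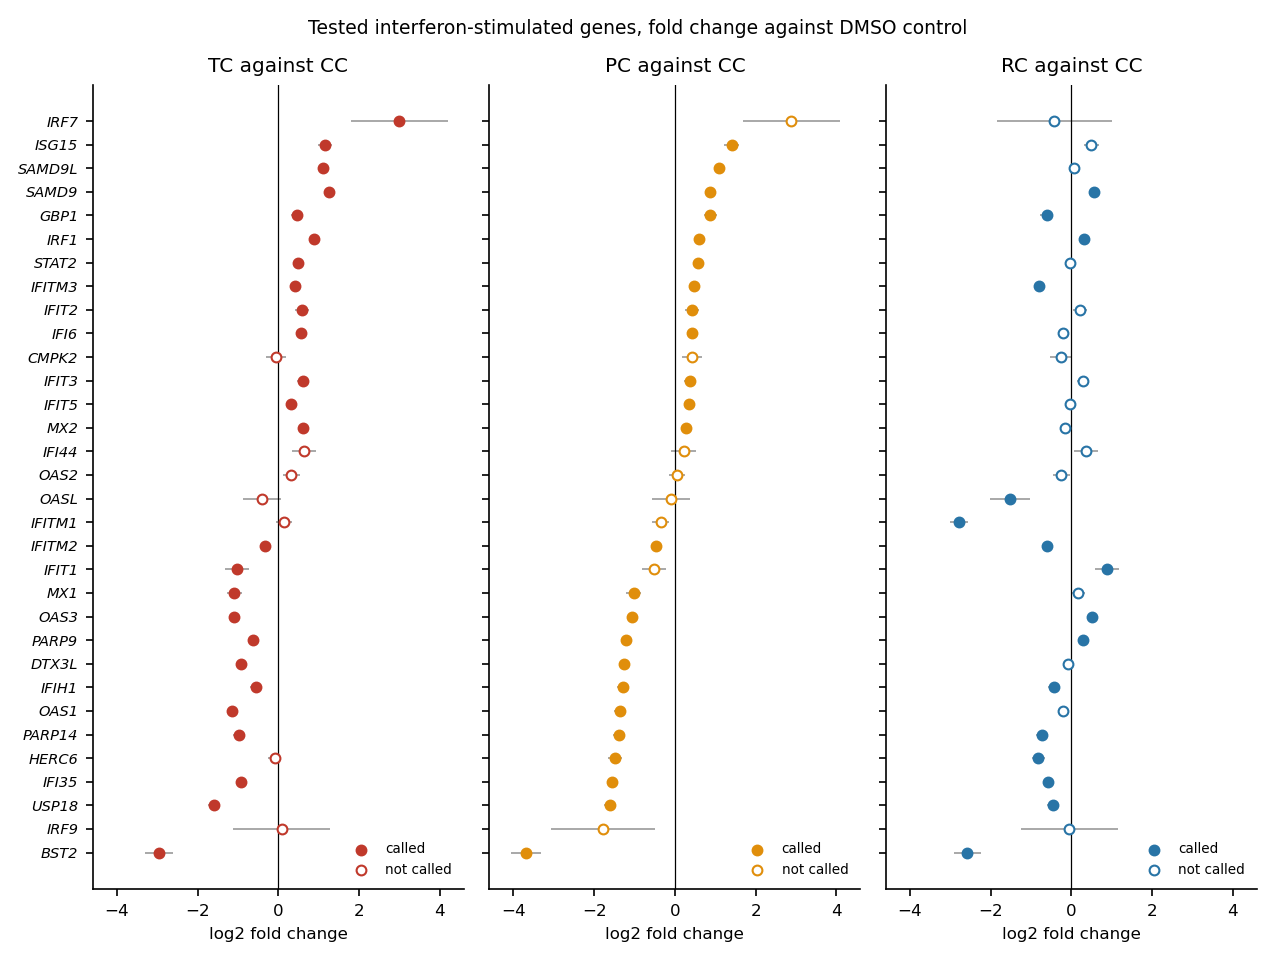
Log2 fold change (x axis) of the 32 tested interferon-stimulated genes (y axis, ordered by the value in PC) in TC, PC and RC against CC, each with 3 libraries a group. Whiskers are SE, and filled points passed an adjusted p of 0.05. Values in TC and PC spread to both sides, from -3.68 for BST2 to 3.00 for IRF7, and most values in RC lie nearer to 0, apart from IFITM1, BST2 and OASL.

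Among the transcription factors, IRF1, which activates interferon-stimulated and antigen presentation genes, was at 5.90, 6.17 and 5.31 CPM in the CC libraries, against 10.3, 11.5 and 10.4 in TC, then 8.76, 8.65 and 9.07 in PC and then 7.63, 6.55 and 7.26 in RC. All treated and recovered libraries lay above all CC libraries. The log2 fold change against CC was 0.89 ± 0.10 in TC (adjusted p 1.01e-05), 0.61 ± 0.10 in PC (adjusted p 0.000229) and 0.30 ± 0.10 in RC (adjusted p 0.0392). The RC call was lost when any of CC replicates 1 and 3, PC replicates 1 to 3, and RC replicates 1 and 3 was left out (adjusted p 0.0518 to 0.12), with the replicate block (0.0567), with the lower filter (0.11) and with only the 2 groups compared (0.135). STAT2, the subunit of ISGF3 that carries its activation domain, was at 54.0, 50.6 and 38.0 CPM in CC, against 71.3, 66.5 and 60.9 in TC, then 69.8, 72.1 and 69.1 in PC and then 44.1, 45.2 and 50.5 in RC. It rose by 0.48 ± 0.11 in TC (adjusted p 0.00243) and 0.57 ± 0.11 in PC (adjusted p 0.000703), and was at -0.03 ± 0.11 in RC (adjusted p 0.879), where the groups overlapped.

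IRF7, the factor that amplifies type I interferon transcription, was a low gene. Its counts gave 0, 0.0226 and 0.317 CPM in CC, against 1.14, 0.128 and 1.59 in TC, then 1.99, 0.109 and 0.601 in PC and then 0.0739, 0.0356 and 0.151 in RC, so TC and PC each held 1 library near the CC range. The log2 fold change was 3.00 ± 1.21 in TC (adjusted p 0.0432), 2.89 ± 1.21 in PC (adjusted p 0.0504), -0.43 ± 1.43 in RC (adjusted p 0.846) and -3.31 ± 1.25 from PC to RC (adjusted p 0.0315). The table lists a second entry for the gene, a numbered copy, at 0.271, 0.745 and 0.254 CPM in CC, against 1.87, 1.53 and 1.25 in TC, then 1.73, 3.45 and 1.41 in PC and then 0.295, 0.356 and 0.492 in RC. With IRF7 and its copy summed, an analysis chosen after the data were seen, the level was 0.27, 0.764 and 0.568 CPM in CC, against 3.02, 1.67 and 2.85 in TC, then 3.74, 3.56 and 2.01 in PC and then 0.369, 0.392 and 0.643 in RC. The summed fold change was 2.22 ± 0.39 in TC (adjusted p 0.000247) and 2.52 ± 0.39 in PC (adjusted p 8.48e-05), and -2.71 ± 0.39 from PC to RC (adjusted p 4.73e-05). In the summed counts every TC and PC library lay above every CC and RC library. Without the copy, the TC call was lost when CC replicate 1 or 2, TC replicate 1 or 3, PC replicate 3, or RC replicate 1 or 2 was left out (adjusted p 0.0505 to 0.135). It was also lost with only the 2 groups compared (0.0503). Without CC replicate 3 the value was 6.05 in TC and 5.95 in PC. The PC value passed the threshold under 9 alternatives, DESeq2 (2.99, adjusted p 0.0153) and the replicate block (2.94, adjusted p 0.0146) among them. The fall from PC to RC was lost without PC replicate 1 or RC replicate 1 or 2 (adjusted p 0.0784 to 0.194).

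IRF9, the DNA-binding subunit of ISGF3, varied more within groups than between them. It was at 0.370, 5.99 and 0.402 CPM in CC, against 4.92, 1.38 and 0.877 in TC, then 0.863, 0.456 and 0.648 in PC and then 5.98, 0.303 and 0.340 in RC. A single library set the mean in CC, TC and RC, and the fitted changes against CC were 0.08 ± 1.20 in TC (adjusted p 0.959), -1.78 ± 1.28 in PC (adjusted p 0.233) and -0.05 ± 1.20 in RC (adjusted p 0.982). In GENCODE v44 the exons of IRF9 (chromosome 14, 24161234 to 24168043, plus strand) share bases with a gene on the same strand and a gene on the opposite one. Whether the counting used strand is not given in the sources used here, so reads of overlapping genes may be split.

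IFIH1 encodes MDA5, a cytoplasmic sensor of long double-stranded RNA. Its level was 17.6, 17.0 and 15.3 CPM in CC, against 13, 11.0 and 10.1 in TC, then 8.40, 6.45 and 5.64 in PC and then 12.8, 12.1 and 12.1 in RC. TC lay below CC, PC lay below TC, and RC lay between PC and CC, with no overlap between PC and any other group. It fell by 0.55 on the log2 scale in TC (SE 0.14, adjusted p 0.00409) and by 1.28 in PC (SE 0.14, adjusted p 5.97e-06). It was lower in PC than in TC by -0.73 ± 0.14 (adjusted p 0.00298), the second largest fall among genes called between these groups.

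Genes of the ISG15 system moved apart. ISG15 is conjugated to proteins by a cascade that includes the ligase HERC5, and USP18 removes it and also blocks signalling at the IFNAR2 receptor chain. ISG15 was at 11.9, 18.1 and 9.27 CPM in CC, against 26.8, 28.0 and 32.4 in TC, then 32.2, 35.2 and 36.5 in PC and then 19.1, 18.1 and 18.2 in RC. It rose by 1.15 ± 0.185 in TC (adjusted p 0.000133) and by 1.41 ± 0.19 in PC (adjusted p 2.49e-05), the largest rise in PC among the 32 genes called with copies counted apart (IRF7 summed with its copy rose more). USP18 was at 14.8, 13 and 10.8 CPM in CC, against 4.28, 4.78 and 3.64 in TC, then 4.39, 4.04 and 4.23 in PC and then 8.57, 10.3 and 9.32 in RC. It was lower by -1.61 ± 0.14 in both TC (adjusted p 9.22e-07) and PC (adjusted p 8.69e-07), and all libraries of TC and PC lay below all of CC and RC. In RC, USP18 was below CC by -0.45 ± 0.14 (adjusted p 0.024). That call was lost without CC replicate 1, RC replicate 1 or RC replicate 3 (adjusted p 0.0699 to 0.1). It was also lost with the lower filter (0.056) and with only the 2 groups compared (0.0542).

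HERC6, a relative of HERC5, was called lower in PC and RC and not in TC. It was at 12.6, 10.5 and 9.52 CPM in CC, against 12.1, 9.74 and 8.88 in TC, then 4.58, 3.61 and 3.47 in PC and then 7.04, 5.73 and 5.73 in RC. TC overlapped CC (-0.09 ± 0.16, adjusted p 0.645), whereas every PC library lay below every TC library (-1.40 ± 0.17, adjusted p 0.000108). HERC6 had the largest fall of the genes called from TC to PC and was the only one of the 32 called beyond 1.5-fold there. HERC5, under the filter and singled out after its values were seen, was at 0.345, 0.610 and 0.296 CPM in CC, 0.0259, 0.0767 and 0.0933 in TC, 0 in the 3 PC libraries, and 0.443, 0.178 and 0.378 in RC. Set against 3 counts per library, it was at least 5.88-fold lower in PC than in CC and at least 4.69-fold higher in RC than in PC. With the filter lowered to a summed count of 2, the adjusted p was 3.61e-05 for PC against CC and 6.53e-05 for RC against PC.

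The IFIT proteins bind viral RNA and block its translation, and their genes lie in a row on chromosome 10 (89283694 to 89421605 for the 4 genes, hg38). IFIT2, IFIT3 and IFIT5 rose a little and IFIT1 did not. In GENCODE v44, exons of IFIT2 and IFIT3 share bases with LIPA on the opposite strand. Whether reads of LIPA entered their counts was not tested. Mean levels went from 4.70 ± 1.13 CPM (SD, n = 3) in CC to 7.02 ± 0.805 in TC for IFIT2, from 9.84 ± 0.647 to 15.1 ± 2.95 for IFIT3, and from 19.0 ± 0.442 to 23.6 ± 0.468 for IFIT5. The changes of these 3 genes ran from 0.31 to 0.62 in TC and from 0.35 to 0.44 in PC (adjusted p 0.0027 to 0.0432). The PC calls of IFIT2 and IFIT3 lay near the threshold. That of IFIT2 was lost without CC replicate 1 or 3, TC replicate 2 or any PC replicate (adjusted p 0.0517 to 0.125). It was also lost with the lower filter (0.0628) and with only the 2 groups compared (0.0832). That of IFIT3 was lost without any CC replicate, TC replicate 2, PC replicate 2, or RC replicate 1 or 2 (adjusted p 0.0521 to 0.192). The lower filter ended it too (0.051). IFIT1 was at 3.70, 5.22 and 2.03 CPM in CC, against 2.05, 2.17 and 1.18 in TC, then 2.54, 2.32 and 2.82 in PC and then 7.09, 6.85 and 6.30 in RC. It was lower in TC (-1.03 ± 0.31, adjusted p 0.0103), although the groups overlapped, and that call was lost without CC replicate 2 (-0.68, adjusted p 0.056). It was higher in RC than in CC (0.89 ± 0.30, adjusted p 0.0354), the largest rise there. The RC call was lost without CC replicate 1 or 3 or any RC replicate (adjusted p 0.0593 to 0.086), and with only the 2 groups compared (0.0615). Without CC replicate 3 the RC value was 0.60, though every RC library lay above every CC library.

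The OAS proteins make 2′-5′ oligoadenylates in response to double-stranded RNA, while OASL lacks that activity and acts with the RNA sensor RIG-I. OAS1, OAS3 and OAS2 are neighbours on chromosome 12 (112905856 to 113011723). OAS3 was at 63.7, 55.6 and 62.9 CPM in CC, against 29.6, 27.2 and 28.5 in TC, then 29.0, 28.7 and 29.5 in PC and then 87.5, 87.3 and 86.4 in RC, so its level was lower in TC and PC and then passed that of CC in RC. The changes against CC were -1.09 ± 0.06 in TC (adjusted p 1.67e-08), -1.06 ± 0.06 in PC (adjusted p 2.07e-08) and 0.52 ± 0.06 in RC (adjusted p 8.82e-05). OAS1 was at 13, 10.6 and 11.1 CPM in CC, against 5.65, 5.88 and 4.29 in TC, then 4.16, 4.71 and 4.56 in PC and then 9.33, 10.3 and 10.5 in RC. It fell by 1.14 in TC (SE 0.14, adjusted p 1.25e-05) and by 1.37 in PC (SE 0.14, adjusted p 2.41e-06), and its RC value of -0.20 ± 0.13 was not called (adjusted p 0.263). OAS2, at 1.81 ± 0.41 CPM in CC, was called in none of the 3 comparisons with CC by edgeR, with changes of -0.25 to 0.32. OASL was a low gene at 0.691, 1.13 and 0.444 CPM in CC, against 0.363, 0.792 and 0.560 in TC, then 0.628, 0.782 and 0.717 in PC and then 0.320, 0.0890 and 0.378 in RC. It was called lower in RC (-1.53 ± 0.50, adjusted p 0.0307), and the call was lost without CC replicate 1 or 2 or RC replicate 1 or 2 (adjusted p 0.0541 to 0.113), with the replicate block (0.0546) and with only the 2 groups compared (0.076).

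The IFITM proteins sit in membranes and hinder the entry of enveloped viruses, and their genes are neighbours on chromosome 11 (303655 to 329475). They were all lower in RC than in CC, whereas in TC and PC IFITM3 was higher, IFITM2 lower and IFITM1 not called. IFITM1 was at 7.72, 6.53 and 5.02 CPM in CC, against 6.89, 7.26 and 7.01 in TC, then 4.26, 4.50 and 6.31 in PC and then 0.689, 0.997 and 1.08 in RC. Every RC library lay below every library of the other groups, at -2.79 ± 0.23 against CC (adjusted p 1.36e-05) and -2.44 ± 0.22 against PC (adjusted p 1e-06), whereas neither TC nor PC was called against CC (0.14 ± 0.21, adjusted p 0.577, and -0.35 ± 0.21, adjusted p 0.148). IFITM3 went from 236 ± 24.5 CPM in CC to 313 ± 7.99 in TC, 327 ± 22.2 in PC and 134 ± 3.55 in RC (SD, n = 3), and the RC change was -0.81 ± 0.08 (adjusted p 3.19e-05). IFITM2 went from 107 ± 12.5 CPM in CC to 85.6 ± 8.05, 77.1 ± 4.58 and 71.2 ± 7.48 in TC, PC and RC, with a TC call that was lost without CC replicate 2 or TC replicate 3 (adjusted p 0.0502 and 0.0627). The 3 genes have similar sequences, and reads could be split between them by the authors' counting.

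Among genes that restrict viruses, BST2 had the largest fall. BST2 (tetherin; chromosome 19, 17402939 to 17405630, minus strand) holds budding virions on the cell surface. It was at 2.07, 1.63 and 1.84 CPM in CC, against 0.363, 0.230 and 0.131 in TC, then 0.157, 0.174 and 0.0925 in PC and then 0.295, 0.303 and 0.321 in RC. BST2 was a low gene, with 84, 72 and 87 counts in CC, 14, 9 and 7 in TC, and 6, 8 and 4 in PC. All libraries after MAPKi lay below all CC libraries, at -2.95 ± 0.35 in TC (adjusted p 1.01e-05), -3.68 ± 0.37 in PC (adjusted p 2.23e-06) and -2.58 ± 0.34 in RC (adjusted p 0.000156). Thus in RC, 9 days after removal of the drug, BST2 remained among the 3 genes called lower beyond 1.5-fold, with IFITM1 and IFITM3. From PC to RC it rose by 1.11 ± 0.38 (adjusted p 0.022), a call lost without PC replicate 3 or RC replicate 3 (adjusted p 0.0859 and 0.0525).

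SAMD9 and SAMD9L, paralogous neighbours on chromosome 7 (93099513 to 93148385) whose products restrict poxviruses, both rose. SAMD9 was at 12.8, 14.1 and 13.6 CPM in CC, against 33.3, 32.2 and 31.1 in TC, then 22.4, 25.9 and 26.2 in PC and then 20.6, 19.2 and 20 in RC. The 4 groups did not overlap, and the change against CC was 1.25 ± 0.08 in TC (adjusted p 3.85e-08), 0.88 ± 0.08 in PC (adjusted p 8.25e-07) and 0.56 ± 0.08 in RC (adjusted p 0.000251). SAMD9L was at 8.96, 8.38 and 8.51 CPM in CC, against 17.8, 19.2 and 18.4 in TC, then 19.5, 18.0 and 17.8 in PC and then 8, 9.36 and 9.42 in RC. It was higher by 1.10 ± 0.09 in TC (adjusted p 3.47e-07) and in PC (adjusted p 3.31e-07), and RC overlapped CC (0.05 ± 0.09, adjusted p 0.676). The difference in RC between the paralogues was not tested.

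MX1 and MX2, GTPases that block the replication of RNA viruses and the nuclear entry of HIV-1, are neighbours on chromosome 21 (41361999 to 41470071) and moved in opposite directions. MX1 went from 7.97 ± 1.85 CPM in CC to 3.74 ± 0.356 in TC, 3.92 ± 0.731 in PC and 8.92 ± 0.965 in RC, a change of -1.09 ± 0.19 in TC. MX2 went from 210 ± 25.5 CPM in CC to 323 ± 7.17 in TC and 187 ± 4.85 in RC, with PC libraries between 248 and 259, a change of 0.62 ± 0.08 in TC. The TC libraries of both genes did not overlap those of CC. GBP1, a GTPase that attacks pathogen vacuoles, went from 9.74 ± 2.00 CPM in CC to 13.4 ± 2.26, 17.9 ± 1.14 and 6.37 ± 0.354. Its rise of 0.47 ± 0.15 in TC (adjusted p 0.0173) was lost without CC replicate 3 or TC replicate 3 (adjusted p 0.0515 and 0.0847), and with only the 2 groups compared (0.0617). CMPK2, a mitochondrial nucleotide kinase gene, was at 1.21 ± 0.28 CPM in CC and was called in none of TC, PC and RC against CC by edgeR, with changes of -0.27 to 0.43.

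**Figure D3:**
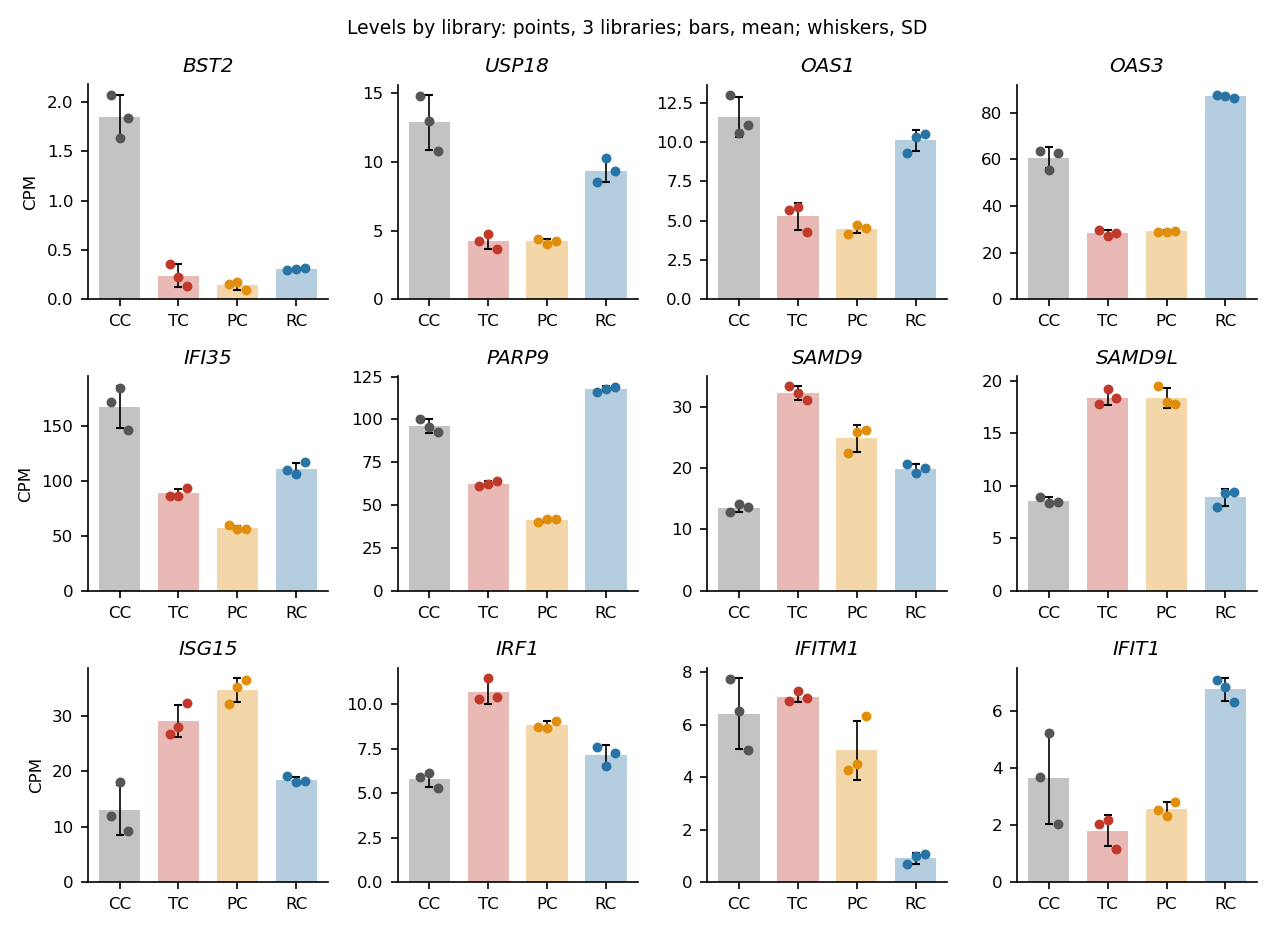
Level in CPM (y axis, from 0) of 12 interferon-stimulated genes in CC, TC, PC and RC. Points are the 3 libraries of a group, bars the mean and whiskers the SD. BST2, USP18, OAS1, OAS3, IFI35 and PARP9 are lower in TC and PC, SAMD9, SAMD9L, ISG15 and IRF1 are higher, IFITM1 is lowest and IFIT1 highest in RC.

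PARP9, DTX3L and PARP14 lie together on chromosome 3 (122527924 to 122730840). PARP9 is an ADP-ribosyltransferase that binds the ubiquitin ligase DTX3L, and PARP14 is a related enzyme. The 3 genes fell together. PARP9 was at 100, 95.4 and 92.7 CPM in CC, against 61.3, 62.5 and 64.1 in TC, then 40.3, 42.2 and 42.0 in PC and then 116, 118 and 119 in RC, with no overlap between any of the groups. The change against CC was -0.62 ± 0.05 in TC (adjusted p 4.36e-07), -1.21 ± 0.05 in PC (adjusted p 1.57e-09) and 0.29 ± 0.05 in RC (adjusted p 0.000944). DTX3L went from 122 ± 12.5 CPM in CC to 64.5 ± 1.52 in TC, 50.6 ± 1.09 in PC and 115 ± 5.99 in RC, and PARP14 from 96.6 ± 25.1 to 49.2 ± 2.29, 37.2 ± 2.41 and 58.0 ± 3.75. PARP14 remained below CC in RC (-0.74 ± 0.14, adjusted p 0.00203), and DTX3L was not called there (-0.08 ± 0.07, adjusted p 0.427). Exons of PARP9 and DTX3L overlap on opposite strands in GENCODE v44, so reads in the shared stretch cannot be assigned without strand.

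Of the remaining genes, IFI35, whose product binds the partner NMI, had the third-largest fall in PC among called genes. Its level was 172, 184 and 146 CPM in CC, against 86.3, 86.2 and 93.4 in TC, then 59.5, 56.2 and 56.0 in PC and then 110, 106 and 117 in RC. The change was -0.92 ± 0.08 in TC (adjusted p 7.5e-07) and -1.55 ± 0.08 in PC (adjusted p 8.97e-09), and RC was also below CC (-0.59 ± 0.08, adjusted p 0.000204). IFI6, a small endoplasmic reticulum and mitochondrial protein gene, went from 66.6 ± 10.7 CPM in CC to 98.3 ± 3.17 in TC, 89.9 ± 1.48 in PC and 57.9 ± 3.93 in RC. IFI44, at 0.641 ± 0.27 CPM in CC, was called in no comparison with CC by edgeR, with changes of 0.21 to 0.64. Among the genes under the filter, XAF1 had 0 counts in all 12 libraries, which allows at most 3 counts in each. TRIM22, RSAD2, IFI27, IFI44L and EPSTI1 were at or below 0.370 CPM in every library, and with the filter lowered to a summed count of 2 edgeR called none of them in the 5 comparisons (lowest adjusted p 0.0868, for IFI44L from PC to RC).

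The comparison of PC with TC followed the first 2 days without drug. At an adjusted p under 0.05, 0 of the 32 genes were higher in edgeR, where 12.2% of all tested genes were, and 7 were lower, where 12.5% were. At an unadjusted p under 0.05, 1 gene was higher, and DESeq2 called 1 gene higher. Without CC replicate 2, CC replicate 3 or TC replicate 3, edgeR called 1 gene higher. The genes that were lower were HERC6, IFIH1, IFI35, PARP9, SAMD9, DTX3L and MX2. Beyond 1.5-fold, 0 were higher (2.33% of all tested genes) and 1 was lower (1.15%). The median was -0.19, against 0.00 over all genes tested. The 7 genes hold members that had fallen in TC (IFIH1, IFI35, PARP9 and DTX3L), members that had risen (SAMD9 and MX2), and HERC6, which had not been called.

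The comparison of RC with PC followed the following week of recovery, and most changes turned back. In RC, 12 genes were higher than in PC, with 35.7% of all tested genes, and 14 were lower, with 34.2%. Beyond 1.5-fold, 9 were higher (20.2% of all tested genes) and 5 lower (18.5%). OAS3 and PARP9 had the largest rises among called genes, at 1.58 ± 0.06 (adjusted p 8.88e-10) and 1.505 ± 0.05 (adjusted p 3.35e-10). IRF7 and IFITM1 had the largest falls. Of the 11 genes lower in both TC and PC than in CC, 10 were then higher in RC than in PC, and of the 12 genes higher in both, 10 were then lower. Over all tested genes these shares were 87.1% and 87.4%, and a return is partly built in because genes were chosen with the same PC libraries. The exceptions were IFITM2, which was lower in both and was not called from PC to RC (-0.11 ± 0.10, adjusted p 0.348), and IFIT2 and IFIT3 (-0.23 and -0.07, adjusted p 0.258 and 0.689). TC against CC and RC against PC share no library, and 27 of the 32 genes (84.4%) had opposite signs in them, close to the 83.3% of all 15916 tested genes.

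**Figure D4:**
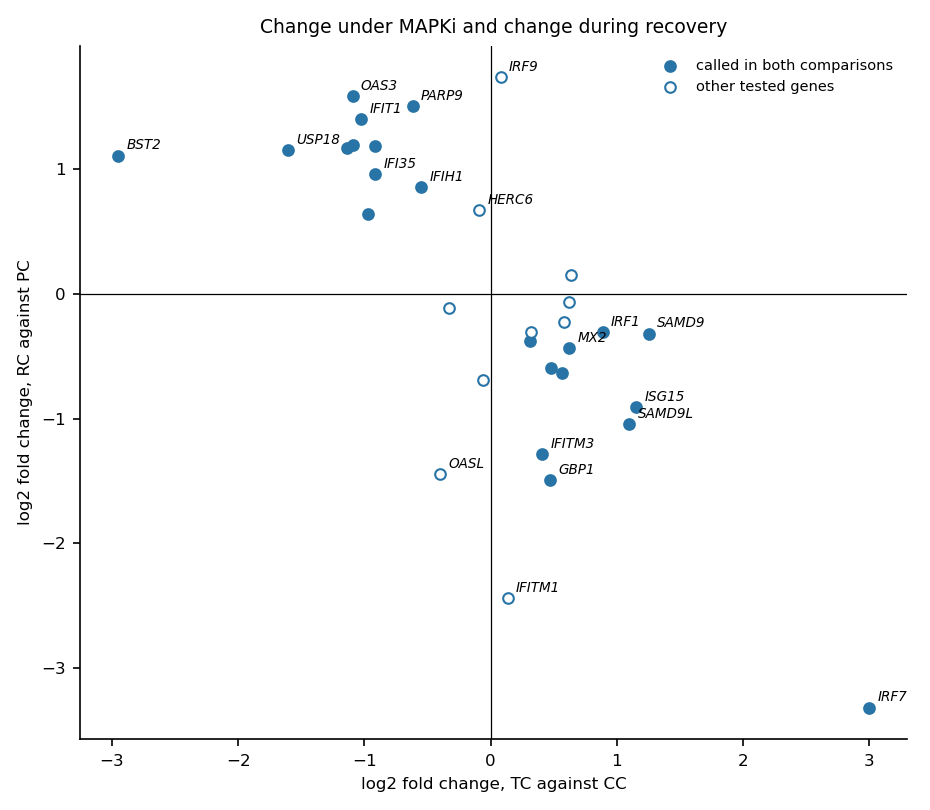
Log2 fold change of TC against CC (x axis) and of RC against PC (y axis) for the 32 tested interferon-stimulated genes, from comparisons with no library in common. Filled points were called in both comparisons and lie at the upper left and lower right, and the 5 genes with the same sign in both are CMPK2, IFI44, IFITM2, IRF9 and OASL.

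The comparison of RC with CC asked what differed from untreated cells 9 days after drug removal. There were 5 genes higher (IFIT1, SAMD9, OAS3, IRF1 and PARP9), with 18.2% of all tested genes, and 11 lower, with 19.1%. Without CC replicate 1, CC replicate 3, RC replicate 1 or RC replicate 3 the number of higher genes was 3, and without CC replicate 2 it was 7. Beyond 1.5-fold, 0 genes were higher in edgeR and in DESeq2 (6 were higher at an unadjusted p under 0.05 with no fold limit), where 1.35% of all tested genes were, and 3 were lower, where 2.52% were. The median log2 fold change was -0.18, against 0.00 over all tested genes. IFITM1, BST2 and OASL were the genes with the largest falls, and the other genes called lower were HERC6, IFITM3, PARP14, GBP1, IFITM2, IFI35, USP18 and IFIH1, from -0.82 to -0.43. The RC call of IFIH1 was lost without CC replicate 1 or 2 or any RC replicate (adjusted p 0.0617 to 0.0956). It was also lost with library totals (0.0522) and with the lower filter (0.0513).

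Levels were compared between genes per kb of exon in GENCODE v44. In CC the highest were IFI35 (mean of 85.5 CPM per kb), IFITM3 (82.9) and IFI6 (71.2), followed by IFITM2 (66.9). IFI35 and IFITM3 differed by less than the spread between CC libraries, with 87.8, 94.0 and 74.6 CPM per kb for IFI35 and 89.7, 85.8 and 73.1 for IFITM3. DTX3L (21.1), ISG15 (15.1) and MX2 (14.4) came next, and neighbours in this order overlapped in their libraries except across the gap from IFITM2 to DTX3L. IFIT1 (0.791), MX1 (0.442), OASL (0.119) and RSAD2 (0.0225) were far lower than IFI6 and ISG15. GENCODE is not the annotation used for counting, and the union of all exons lowers the value of genes with long or rare exons.

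**Figure D5:**
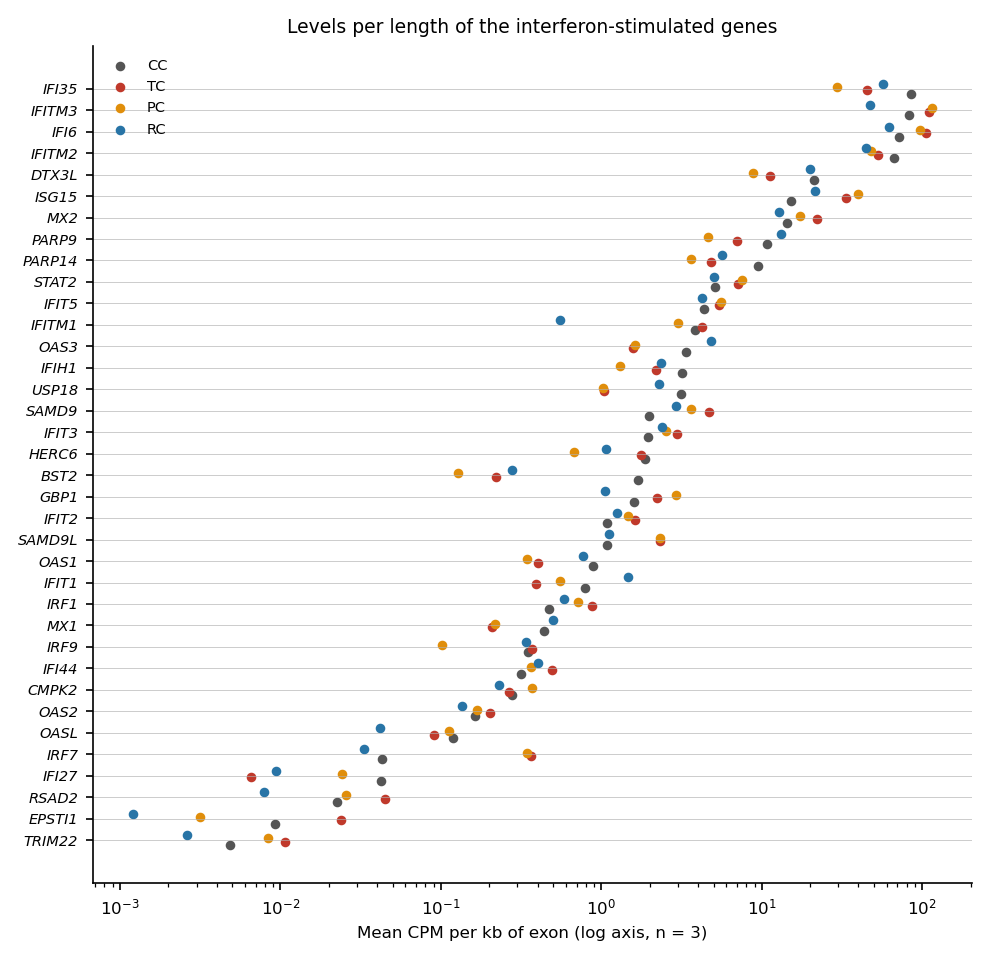
Mean level in CPM per kb of exon (x axis, log scale) of 36 interferon-stimulated genes in CC, TC, PC and RC (n = 3 each), ordered by the CC level. HERC5, IFI44L and XAF1 are left out because a group mean was 0. Levels in CC run from 0.00487 for TRIM22 to 85.5 for IFI35.

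Upstream of these genes, transcripts of the interferons themselves were near the floor. All 21 interferon genes listed were in the table and 15 of them, with IFNB1, IFNG and IFNL1 among these, had 0 counts in all 12 libraries, and the highest count of any other was 12 in a library. None could be tested. Of 10 genes for receptors and JAK-STAT signalling, 9 were tested, of which 4 were higher and 2 lower in TC and 3 higher and 4 lower in PC. For this and the other pathway lists, the shares of all tested genes were 33.2% higher and 34.7% lower in TC, and 33.2% higher and 35.9% lower in PC. The type I receptor chain IFNAR1 went from 92.8 ± 5.89 CPM in CC to 178 ± 18.2 in TC and 186 ± 12.9 in PC (0.94 ± 0.08 and 1.00 ± 0.08), and IL10RB, a chain of the type III receptor, rose by 1.05 ± 0.11 in TC. IFNGR2, a chain of the interferon gamma receptor, went from 33.1 ± 5.05 to 16.5 ± 0.813 and 15 ± 2.47 CPM (-1.01 ± 0.13 and -1.14 ± 0.13).

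Of 15 sensors and adaptors present by symbol, 12 were tested, of which 5 were higher and 2 lower in TC and 3 higher and 3 lower in PC. IFI16, a DNA sensor, went from 452 ± 62.9 CPM in CC to 192 ± 21.8 in TC and 128 ± 5.07 in PC, and was at 497 ± 37.8 in RC. Of 9 tested negative regulators, 4 were higher and 2 lower in TC and 4 higher and 3 lower in PC, with SOCS3, an inhibitor of JAK kinases, higher by 1.11 ± 0.29 in TC and the phosphatase gene PTPN2 lower by -1.08 ± 0.08.

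Among antigen presentation genes more rose than fell under MAPKi. Of 19 listed, 10 were tested, of which 6 were higher and 2 lower in TC, 5 higher and 1 lower in PC, and 1 higher and 6 lower from PC to RC. CIITA, the class II transactivator, rose by 1.44 ± 0.16 in TC and 1.20 ± 0.15 in PC, and PSMB10, an immunoproteasome subunit gene, by 1.44 ± 0.09 and 1.30 ± 0.09. PSME1, called lower in TC, ranged from 0.999 to 40.1 CPM within PC and from 0.739 to 61.1 within RC. Of 33 tested genes of other interferon-induced effectors, 8 were higher and 14 lower in TC and 6 higher and 20 lower in PC, with a median of -0.53 in PC against -0.04 over all tested genes. The largest falls in PC were WARS1 (-2.48 ± 0.16), a tryptophanyl-tRNA synthetase gene, GBP2 (-2.31 ± 0.15) and the scramblase gene PLSCR1 (-1.86 ± 0.09), and the largest rise was CD74, the class II invariant chain, from 868 ± 138 CPM in CC to 3540 ± 287 in PC (2.03 ± 0.11).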

How the data were processed

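Cytoplasmic RNA of A375 cells was sequenced in 12 libraries, 3 in each of 4 groups named by the sample labels. The deposited values are raw counts of reads on exons per gene; the authors trimmed reads with fastp 0.20.1, aligned them to GRCh38 p13 with HISAT2 2.2.1 and counted with HTSeq 0.13.5. Whether strand was used and how reads with several matches were treated is not given in the sources used here. Besides the overlaps named above, exons of IRF1, ISG15, OAS1, MX1, IFITM1, IFITM2, IFITM3, CMPK2, RSAD2 and XAF1 share bases with opposite-strand genes in GENCODE v44. Numbered copies of genes (5088 in the table) can take reads from the gene they are named after.

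Counts were tested with the quasi-likelihood test of edgeR 4.0.16 in R 4.3.3, two-sided, with TMM factors of 0.965 to 1.02, on 15916 of 44659 genes with a mean scaled count of at least 10. All 12 libraries entered 1 fit with a mean per group (8 residual degrees of freedom, biological coefficient of variation 0.182). P-values were adjusted by Benjamini-Hochberg over all tested genes and called under 0.05, and changes beyond 1.5-fold by glmTreat at an adjusted p of at most 0.05. Fold changes are log2 ± SE, and levels are mean CPM ± SD of 3 libraries. With 37773389 to 55567097 counts per library, 3 counts equal at most 0.0785 CPM. No replicates were found to be the same library (lowest chi-square per gene 10.9). The test was checked on simulated counts for TC against CC. Of genes changed 4-fold, 82 of 100 were called in the right direction, and of genes changed 2-fold, 63 of 98. Of 15593 unchanged genes, 2 were called. A gene that was not called may thus still have changed.

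The members and gene lists were chosen with earlier results of these data known. Values per library were given for the 4 transcription factors, the 3 largest called changes in each direction against CC and the 2 largest in PC against TC and RC against PC, with up to 3 genes a direction for each pathway list. Other genes given in full (HERC5, IFITM2, IFITM3, IFIT2, IFIT3, IFIT5, MX1, MX2, GBP1, PARP14, DTX3L, IFI6 and the paralogues of genes named by this rule) were singled out after their values were seen. Alternatives were other normalizations, the filter lowered to a summed count of 2, DESeq2 1.42.0, a replicate block, only the groups compared, leaving out each library, and summing numbered copies. Promoters were read from RefSeq tables (GRCh38.p14) and gene positions and exon lengths from GENCODE v44, with Python 3.11.15. Results for some genes of the pathway lists are not reported here.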

Additional observations from a re-analysis of the deposited data

Results flagged for a closer look

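For 5 genes the changes against CC in TC and in RC were called in opposite directions, and the difference was tested as RC against TC in the same edgeR fit, a comparison chosen after the data were seen. The genes were selected by TC and RC lying on opposite sides of CC, so a difference between the same TC and RC libraries was largely fixed by the selection, and the p-values are no independent support for it. The log2 fold change of RC over TC was 1.91 for IFIT1 (SE 0.31, adjusted p 0.00014), 1.61 for OAS3 (SE 0.06, adjusted p 5.89e-10) and 0.91 for PARP9 (SE 0.05, adjusted p 1.32e-08), which were lower than CC in TC and higher in RC. It was -1.22 for IFITM3 (SE 0.08, adjusted p 4.08e-08) and -1.08 for GBP1 (SE 0.16, adjusted p 5.42e-05), which were higher than CC in TC and lower in RC. TC and RC were harvested on different days, and the day and the group cannot be told apart.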

How the results depend on the processing

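Of the alternatives for counts and medians, 444 values stayed within the limits set for a change and 31 moved, and among single genes 3089 values kept their direction and side of the threshold, 117 lost the call, 9 gained it and 15 changed sign. With the filter lowered to a summed count of 2, the median log2 fold change was -0.25 in RC against CC, -0.25 in PC against TC and -0.31 in RC against PC. With only the 2 groups compared, 3 genes were higher in RC than in CC and 1 in PC than in TC, and DESeq2 called 1 in the latter. Leaving out 1 library gave medians of -0.0915 to 0.23 in TC, -0.22 to 0.27 in PC and -0.20 to -0.11 in RC against CC, -0.27 to -0.11 in PC against TC and -0.28 to -0.12 in RC against PC, with 3 to 7 genes higher in RC than in CC and 0 to 1 in PC than in TC. Values that changed sign had started from no call. Over all single libraries left out, IRF9 ran from -0.998 to 2.61 in TC, from -2.29 to 0.75 in PC and from -2.80 to 2.49 in RC, and in RC IRF7 ran from -1.12 to 2.63, DUSP6 from -0.54 to 0.65 and STAT2 from -0.16 to 0.075. IRF9 in TC became -0.22 with a replicate block, -0.43 without CC replicate 1, -0.42 without CC replicate 3 and -0.998 without TC replicate 1, and in PC 0.75 without CC replicate 2. In RC, IRF9 became 2.49 without CC replicate 2, 0.48 without RC replicate 2 and 0.47 without RC replicate 3, IRF7 2.63 and DUSP6 0.65 (adjusted p 0.00788) without CC replicate 3. STAT2 in RC became 0.0023 with library totals, 0.075 without CC replicate 1, 0.0208 without CC replicate 2, 0.0181 without RC replicate 1 and 0.0001 without RC replicate 2. The cause was not tested. From PC to RC, the calls of CMPK2 (without PC replicate 3, RC replicate 2 or 3), OASL (without PC replicate 2 or RC replicate 2) and IRF1 (without PC replicate 3 or RC replicate 2) were lost, with adjusted p of 0.0546 to 0.142. Those of CMPK2 (0.0572) and IRF1 (0.0695) were also lost with the lower filter. Among CC, TC and PC, 9 of 9 same-numbered pairs of libraries correlated best with their own number, against 2 of 9 pairs with RC (11 of 18 in all). The correlations were weak, from -0.0373 to 0.155, with 2 of 18 pairs over 0.1. Libraries of the same number in CC, TC and PC may thus share a source of variation. This comes from the data and not from the design, and the main fit took no pairing into account. With the replicate block the counts higher and lower were 14 and 12 in TC, 13 and 12 in PC, 4 and 10 in RC against CC, 0 and 7 in PC against TC, and 12 and 14 in RC against PC, and the median in TC was 0.0276. Depth limits most of the genes under the filter, which had at most 27 counts in a library.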
